A study of Rattus norvegicus with 15 samples.

Results

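Gene expression in the nucleus accumbens, the ventral part of the striatum, was compared between rats that had an extinction test after 1 day of cocaine withdrawal (1C, 3 arrays) and rats at 1 day of withdrawal without the test (1W, 3 arrays). The 6 arrays were chosen by their titles, out of 15 in the series, and are described across all genes with 1 symbol. All animals were male Sprague-Dawley rats. Both groups had pressed a lever for intravenous cocaine, 0.75 mg/kg per infusion, in sessions of 6 h over 10 days, and each infusion came with a light above the lever. The remaining arrays are those of saline self-administration (Sal), of 30 days of cocaine withdrawal (30W) and of 30 days with the extinction test (30C), 3 each. They enter here through the shared estimate of spread and as values set beside the result. Whether RNA on an array came from 1 rat or from a pool is not stated in the labels, nor are the length of the test and the delay before tissue collection. P-values therefore measure the spread between these samples, which may be technical.

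In an extinction test the rat is returned to the chamber and can press the lever that earlier gave cocaine, but receives no drug, and the presses are taken as drug seeking. Seeking of this kind grows over weeks of abstinence, which is called incubation of craving, so a test after 1 day stands at its start. Most neurons of the accumbens are inhibitory medium spiny neurons that carry D1 or D2 dopamine receptors, and firing neurons transcribe immediate early genes such as Fos and Arc for a short time. The tissue also holds oligodendrocytes, astrocytes, microglia and vessels, and its neighbours include myelinated tracts, cortex and the lateral ventricle, whose walls are lined by ciliated ependymal cells and which holds the choroid plexus.

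Values are RMA log2 intensities, 1 array per sample, and the number of arrays limits the precision. All pairs of arrays correlated at 0.9929 to 0.9967 over the probe sets. Markers of medium spiny neurons were high on all 6 arrays, with Ppp1r1b, the phosphoprotein DARPP-32, at 12.01 to 12.39, Penk, the enkephalin precursor, at 12.59 to 12.92, and the dopamine receptor Drd2 at 11.33 to 11.88. The vesicular glutamate transporter Slc17a7, of cortical projection neurons, was also measured, at 9.83 to 11.56 on the 6 arrays. The number of cells of a type and the RNA per cell cannot be told apart in bulk tissue, here or in any result below.

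No gene passed the test between 1C and 1W. With limma, 0 of 11778 genes (0.0%) had an adjusted p under 0.05, and the smallest adjusted p was 0.717, that of Lgals3. At an unadjusted p under 0.05 there were 474 genes (4.02%), of which 219 (1.86%) were higher and 255 (2.17%) lower in 1C, while a uniform spread of p-values would give 588.9. The 3 arrays of 1C lay all above or all below the 3 of 1W in 926 genes (7.86%), 420 higher (3.57%) and 506 lower (4.3%). Over all genes 5543 (47.1%) differed upwards and 6234 (52.9%) downwards, the median difference was -0.0047 and the median size of a difference 0.045 on the log2 scale.

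At a cut of 0.5, the large differences nevertheless ran in 1 direction. A difference of 0.5 or more on the log2 scale was found in 35 genes, and all 35 were higher in 1C, with 0 lower. Some genes lower in 1C came near this cut, such as Ctxn3 at -0.48 and Syt2 at -0.42. Of these 35, 25 had an unadjusted limma p under 0.05 and 12 had groups that did not overlap. All but 1 of them fell into 3 kinds by array, the exception being the vomeronasal receptor Vom1r34. In 28 genes both 1C replicate 1 and 1C replicate 3 lay above every 1W array, 5 genes were set apart on 1C replicate 2 alone, and Ttr was set apart on 1C replicate 1 alone. Of the 35, 11 were ependymal markers or members of axonemal gene families, all of the first kind, and the second kind was Ccl2, Cxcl10, Timp1, Csf2rb and Cp, genes of inflammation and the acute phase.

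**Figure D1:**
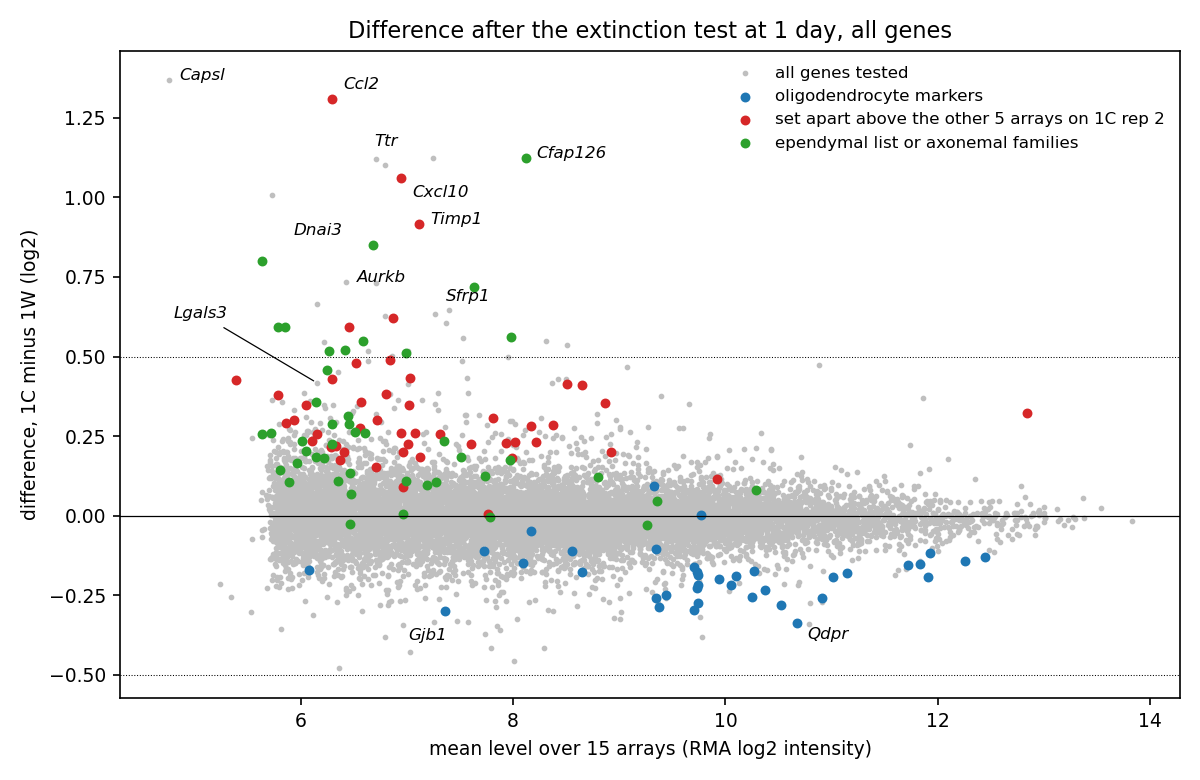
Difference between 1C and 1W (log2, vertical axis) against mean level over 15 arrays (RMA log2 intensity, horizontal axis), 1 point per gene for 11778 genes. Dotted lines mark 0.5 and -0.5, and the 35 genes past them are all on the upper side, where inflammatory genes of 1C replicate 2 (red) and ciliary genes (green) lie, while oligodendrocyte markers (blue) lie mostly below 0 by less than 0.5.

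To place these signals, list scores were computed for each array. A score averages, over the members of a list, how far each gene lay from its own 15-array mean. Several scores set single arrays apart. The inflammatory score was 0.58 on 1C replicate 2 and between -0.08 and -0.04 on the other 5 arrays. The choroid plexus score was 0.27 on 1C replicate 1 and between -0.18 and -0.02 on the others. Ependymal and axonemal scores were highest on 1C replicates 1 and 3. The oligodendrocyte score was 0.22 and 0.18 on 1W replicates 1 and 2, with the remaining 4 arrays between -0.08 and -0.02, 1W replicate 3 just above the 1C arrays.

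**Figure D2:**
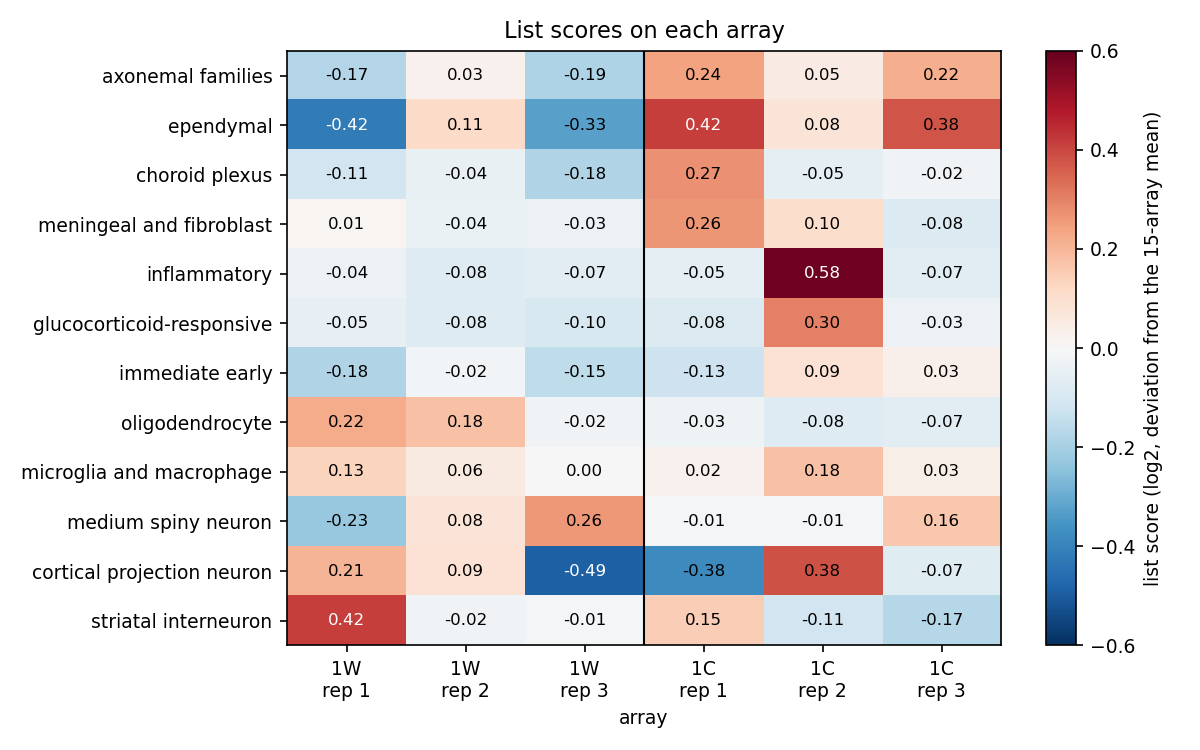
Score of 12 gene lists (log2 deviation from the mean over 15 arrays, colour and printed value) on the 3 arrays of 1W and the 3 of 1C. The inflammatory score of 0.58 stands on 1C replicate 2 alone, the ependymal scores of 0.42 and 0.38 on 1C replicates 1 and 3, and the oligodendrocyte scores of 0.22 and 0.18 on 1W replicates 1 and 2.

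Genes of motile cilia were prominent among the large differences. A motile cilium is built on an axoneme of microtubules with dynein arms, radial spokes and docking proteins, and in the brain such cilia beat on ependymal cells. Of 13 ependymal markers, 8 were tested, and all 8 were higher in 1C on average, with a median difference of 0.52 against -0.0047 over all genes. Of these, 5 had an unadjusted limma p under 0.05, where the background is 1.86%, and 0 passed over all genes. Because the largest differences pointed to cilia, 9 symbol families of axonemal genes (Dnah, Dnai, Dnali, Cfap, Drc, Rsph, Odad, Dnaaf and Tekt) were then counted, a choice made after those values were seen that gives no independent support. Of their 40 tested members, 37 differed upwards and 3 downwards, 17 had an unadjusted limma p under 0.05 (background 1.86%) and 12 had groups that did not overlap (background 3.57%), all higher in 1C. Their median difference was 0.21.

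Promoter sequence was read for the axonemal genes because they moved together between arrays. Ciliary genes are known targets of RFX factors, whose half-site GTTGCC was searched on both strands in the 250 bases before the annotated start (RefSeq, GRCr8). It occurred in 9 of the 33 axonemal promoters in the table (27.3%), in 2719 of all 27457 promoters (9.90%) and in 1016 of the 9710 tested genes with a promoter (10.5%). A match describes the letters of the window and is not a binding site. The examples below, with the match in capitals, belong to Drc12 (chr8:53474461-53474536, plus strand), a subunit of the dynein regulatory complex, and Cfap141 (chr2:177805156-177805231, plus strand), a cilia and flagella associated protein.
Drc12: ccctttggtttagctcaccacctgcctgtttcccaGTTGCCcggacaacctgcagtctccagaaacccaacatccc
Cfap141: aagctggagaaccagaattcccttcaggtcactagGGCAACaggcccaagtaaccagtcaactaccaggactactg

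Cfap126, which takes part in placing the basal bodies of cilia, had the largest difference on the ependymal list. Its level was 7.22, 8.50 and 7.25 on 1W replicates 1, 2 and 3 and 8.91, 8.41 and 9.03 on 1C replicates 1, 2 and 3. The difference was 1.12 (SE 0.42), or 2.18-fold, and the groups overlapped, because 1W replicate 2 lay above 1C replicate 2. Drc12 had the same arrangement, at 7.11, 7.70 and 6.95 in 1W and 8.12, 7.68 and 8.12 in 1C, a difference of 0.72 (SE 0.29). Dnai3, a dynein intermediate chain, was at 6.11, 6.82 and 6.11 in 1W and 7.37, 6.90 and 7.32 in 1C, and here the groups just separated, with a difference of 0.85 (SE 0.32). In each of these genes 1W replicate 2 and 1C replicate 2 were close together, and the contrast lay between 1W replicates 1 and 3 and 1C replicates 1 and 3.

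Other ciliary genes followed the same order of arrays. Dnah12, an axonemal dynein heavy chain, was at 5.15, 5.74 and 5.14 in 1W and at 6.49, 5.65 and 6.30 in 1C. Zmynd10, needed to assemble dynein arms, was at 6.85, 7.35 and 6.95 against 7.81, 7.50 and 7.66, a difference of 0.61 (SE 0.18) between groups that did not overlap. Capsl, whose difference of 1.37 (SE 0.62) was the largest of all genes, was at 3.77, 5.25 and 3.68 against 5.92, 4.92 and 5.97, near the bottom of the intensity range. On 1W, 1C replicate 2, 30W (at most 5.16) and 30C (at most 5.34) Capsl lay below the level the expression filter asked for. The lowest saline array, at 3.98, did too, so Capsl could enter the test only with a 1C array where it was high. Foxj1, the transcription factor that switches on the motile cilia program, differed least among them, at 7.35, 7.56 and 7.32 against 7.62, 7.58 and 7.59, by 0.19 (SE 0.08). Over the 35 genes with a difference of 0.5 or more, 1W replicate 2 was the highest 1W array in 31 and exceeded 1C replicate 2 in 17.

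The saline arrays set a scale for this spread. The ependymal score was 0.56 on Sal replicate 1 and -0.21 and -0.23 on Sal replicates 2 and 3, a wide spread within 1 group without cocaine. Single arrays ran from -0.42 to 0.11 within 1W and from 0.08 to 0.42 within 1C. The mean scores of 1C and 1W differed by 0.50, a measure unlike a range of single arrays. Cfap126 ranged from 7.69 to 9.08 within Sal, a span that takes in all 3 of the 1C values. Between 30C and 30W the ependymal markers had a median difference of 0.09 and the axonemal families 0.04. The count of ependymal markers at an unadjusted p under 0.05 was 0 when 1W replicate 1, 1W replicate 3 or 1C replicate 3 was left out and 1 when 1C replicate 1 was. The axonemal count of 17 became 9 on leaving out replicate 1 of either group and 6 on leaving out replicate 3 of either.

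**Figure D3:**
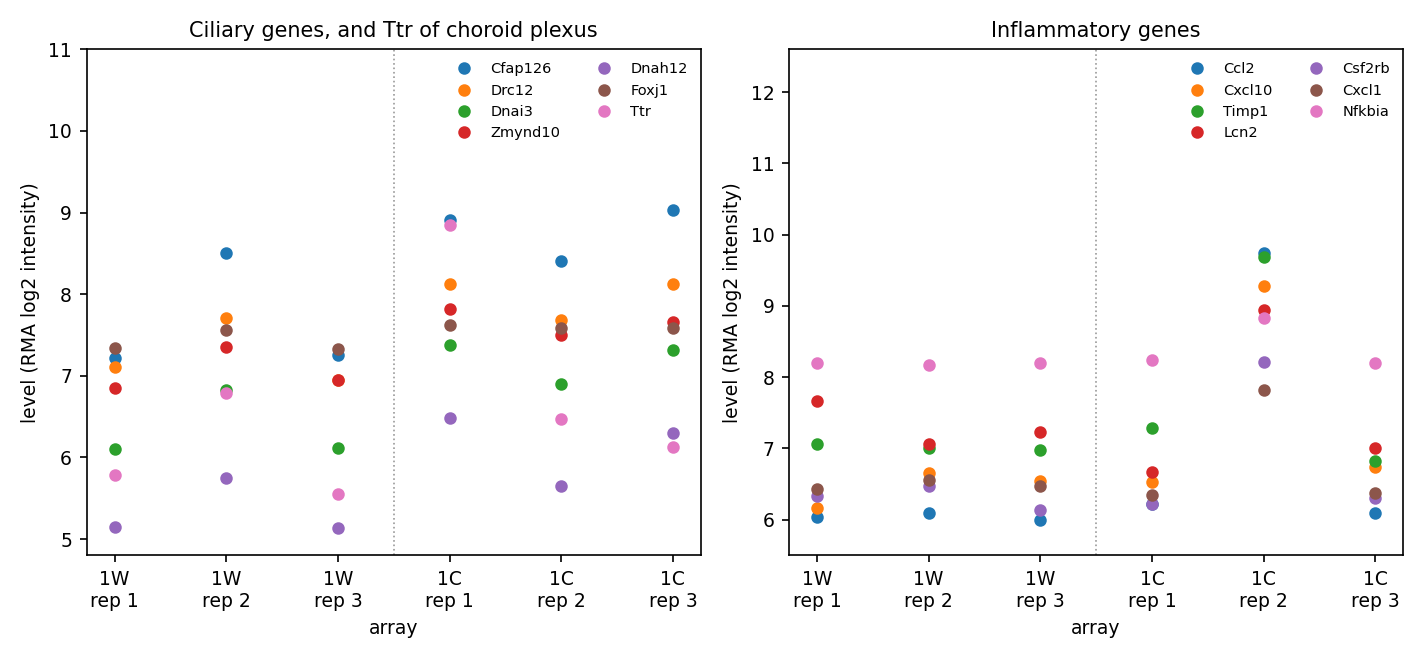
Level of single genes (RMA log2 intensity, vertical axis) on each of the 6 arrays (horizontal axis), 1 point per gene and array; left, 6 ciliary genes and Ttr, right, 7 inflammatory genes. Cfap126 is high on 1C replicates 1 and 3 (8.91 and 9.03) and on 1W replicate 2 (8.50), Ttr is high on 1C replicate 1 only (8.84), and Ccl2, Cxcl10 and Timp1 are high on 1C replicate 2 only (9.75, 9.28 and 9.69).

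The choroid plexus signal went with the ependymal one on some arrays and not on others. Ttr, transthyretin, which choroid plexus epithelium makes in bulk, reached 8.84 on 1C replicate 1, while 1C replicates 2 and 3 gave 6.46 and 6.12 and the 1W arrays 5.79, 6.79 and 5.55. The mean difference of 1.10 had an SE of 1.05 and rested on that 1 array. Kcnj13, a potassium channel of the same epithelium, was also highest there, at 6.66 against 5.38 to 5.74 on the other 5 arrays. Other genes set apart by 0.5 or more on this array, 7 in all, included the growth factor Igf2 (8.67 against at most 7.87) and the matrix proteoglycan Fmod (7.23 against at most 6.38), both on the meningeal and fibroblast list. On 1C replicate 3, where ciliary genes were as high as on replicate 1, Ttr was low and the choroid plexus score was -0.02. Of 13 choroid plexus markers 10 differed upwards, with a median of 0.11. The sulphate transporter Slc13a4, at 0.23 (SE 0.11), was the 1 with an unadjusted limma p under 0.05 (background 1.86%). The choroid plexus signal was not particular to 1C, since the score was 0.38 on 30W replicate 3 and 0.30 on 30C replicate 3. The ependymal score was -0.27 on 30W replicate 3, 0.28 on 30C replicate 3 and 0.42 on 1C replicate 1. Ttr reached 10.20 within 30W and 8.83 within 30C.

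Inflammatory genes were carried by yet another array. On 1C replicate 2, 48 genes lay 0.5 or more above the other 5 arrays, compared with 7 on 1C replicate 1, 2 on 1C replicate 3, 24 on 1W replicate 1 and 0 on 1W replicates 2 and 3. They included chemokines that recruit monocytes, neutrophils and T cells, cytokines such as Il1b and Csf3, acute phase proteins and feedback inhibitors of inflammatory signalling such as Nfkbia and Socs3. Their promoters are shown because NF-kB, a factor that drives many inflammatory genes, has a known motif, searched here as GGGA, then any 2 bases, then TTCC, on both strands of the 250 bases before the start (RefSeq, GRCr8). Of the 48 genes 38 had a promoter in the table, and 8 of these (21.05%) held the motif, namely those of Cxcl1, Cxcl10, Cxcl11, Gbp5, Ifitm3, Lcn2, Nfkbia and Upp1. It occurred in 293 of all 27457 promoters (1.07%) and in 120 of the 9710 tested genes with a promoter (1.24%). The examples, with all matched bases in capitals, are Cxcl1 (chr14:17479360-17479439, minus strand), Cxcl10 (chr14:15988904-15988983, plus strand), Cxcl11 (chr14:15973619-15973698, plus strand) and Nfkbia (chr6:78597073-78597138, minus strand). They show letters, not binding.
Cxcl1: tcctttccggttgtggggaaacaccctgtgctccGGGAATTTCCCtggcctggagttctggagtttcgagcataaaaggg
Cxcl10: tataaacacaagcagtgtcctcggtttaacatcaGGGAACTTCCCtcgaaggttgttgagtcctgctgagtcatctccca
Cxcl11: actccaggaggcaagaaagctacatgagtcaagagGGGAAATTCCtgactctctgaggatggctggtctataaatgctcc
Nfkbia: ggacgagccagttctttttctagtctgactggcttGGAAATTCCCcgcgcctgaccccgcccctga

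Ccl2, the chemokine that attracts monocytes, showed the widest gap. It was at 9.75 on 1C replicate 2, at 6.22 and 6.10 on 1C replicates 1 and 3 and at 6.04, 6.10 and 6.00 in 1W. The group difference of 1.31 (SE 0.66) became 0.11 without 1C replicate 2. Cxcl10, an interferon-induced chemokine, was at 9.28 there and between 6.16 and 6.75 on the other 5 arrays, and its difference went from 1.06 (SE 0.61) to 0.18. Timp1, an inhibitor of metalloproteinases made after injury, was at 9.69 and between 6.82 and 7.29, and its difference went from 0.91 (SE 0.49) to 0.04. These 3 genes were thus among the largest mean differences of the comparison and were carried by 1 of its 6 arrays.

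Lcn2, an iron-binding acute phase protein, was at 8.94 on 1C replicate 2 and at 6.67 to 7.66 on the others, and its difference of 0.22 turned to -0.48 without that array. For Cxcl1, a neutrophil chemokine at 7.82 there and 6.34 to 6.55 elsewhere, the difference of 0.36 turned to -0.13. Of 36 inflammatory genes tested, 30 differed upwards, with a median of 0.16, yet only Cxcl16 had an unadjusted limma p under 0.05 (background 1.86%). Cxcl16, a chemokine held on the cell surface, was at 7.33, 7.19 and 7.13 in 1W and 7.49, 7.99 and 7.34 in 1C, a difference of 0.39 (SE 0.13) between groups that just separated. All 7 tested markers of activated microglia differed upwards, with a median of 0.09, and 1C replicate 2 had the highest score of these markers, 0.28, above 0.06 and 0.04 for replicates 1 and 3.

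Glucocorticoid-responsive genes stood highest on the same array, with a score of 0.30 against -0.10 to -0.03 on the other 5. Of 21 tested, 19 differed upwards, and 2 had an unadjusted limma p under 0.05 (background 1.86%), the metallothioneins Mt1 and Mt2A, which bind metal ions. Mt1 was at 11.70, 11.76 and 11.89 in 1W and 12.06, 12.51 and 11.89 in 1C, a difference of 0.37 (SE 0.15). Mt2A was at 12.68, 12.81 and 12.77 against 12.87, 13.50 and 12.86, a difference of 0.32 (SE 0.13). Whether the inflammatory signal of 1C replicate 2 had a part in these values was not tested. Outside 1 day, the inflammatory scores of 30W replicates 1 and 3 were 0.08 and 0.16, and Cxcl10 reached 8.51 and Cxcl11 7.76 within 30W. Over the 30W arrays Ccl2 was at 5.86 to 5.95 and Timp1 at 6.63 to 6.92.

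The genes higher in 1C described next are those with the smallest p-values among the 420 (3.57%) whose groups did not overlap. Their separation and small spread therefore come from that choice. Lgals3, a galectin made by microglia and macrophages when activated, was at 6.02, 6.10 and 5.99 in 1W and 6.41, 6.45 and 6.50 in 1C. These levels were low beside the median level of the tested genes, 8.18. The gap between the groups was wider than the range within either, and the difference was 0.42 (SE 0.07), or 1.34-fold, with the smallest p of all genes. The saline arrays were at 5.98 to 6.04, next to 1W, and at 30 days the difference was -0.03 (SE 0.07). The 30-day arrays were at 6.00 to 6.10 for Lgals3, except 30W replicate 3 at 6.25 and 30C replicate 3 at 6.31. Lgals3 passed the adjusted threshold only where 30C replicate 3 was left out of the shared estimate of spread (limma adjusted p = 0.0317).

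Sfrp1, a secreted antagonist of Wnt signalling, was at 6.95, 7.35 and 6.97 in 1W and at 7.70, 7.76 and 7.71 in 1C. Its difference was 0.63 (SE 0.16), the 3 arrays of 1C agreed within 0.06, and 30C and 30W differed in the same direction by 0.45 (SE 0.16). Aurkb, the mitotic kinase Aurora B, was at 5.87, 6.51 and 6.12 against 7.01, 6.67 and 7.03, a difference of 0.73 (SE 0.16). Its arrays had the order seen in ciliary genes, with 1C replicate 2 and 1W replicate 2 closest, and the part of that signal in its difference was not tested. Between 30C and 30W Aurkb differed by 0.36 (SE 0.16). Saline arrays were at 6.08 to 6.70 for Aurkb and at 7.25 to 7.52 for Sfrp1. The calcium-binding membrane protein Anxa2 was at 7.52, 7.35 and 7.33 against 7.99, 8.09 and 7.59, a difference of 0.49 (SE 0.13).

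RT1-CE13 and Ston1, also among the genes with the smallest p, belonged to families with known roles. RT1-CE13, a class I gene of the rat major histocompatibility complex, was at 8.08, 8.01 and 8.06 in 1W and 8.27, 8.36 and 8.31 in 1C, a difference of 0.26 (SE 0.06), though such genes have near-identical copies whose signals a probe set may share. Its saline level, 8.19 to 8.36, lay with 1C. Ston1, an endocytic adaptor, behaved alike, at 6.34, 6.59 and 6.49 against 6.79, 6.82 and 6.78, with saline at 6.69 to 6.94. For both genes the 1W arrays were the lowest of all 15. The 30-day arrays of both groups were at 6.70 to 6.83 for Ston1, near 1C, and at 8.14 to 8.42 for RT1-CE13, where the lowest lay between 1W and 1C.

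Among genes lower in 1C, Tal1 had the smallest p. Tal1, a transcription factor of blood and vascular lineages, was at 6.21, 6.31 and 6.22 in 1W and at 5.86, 5.93 and 6.02 in 1C. Its difference was -0.31 (SE 0.06) and the groups did not overlap, but saline arrays, at 5.88 to 6.05, lay with 1C. The 30-day arrays lay above each 1C array, at 6.24 to 6.38 in 30W and 6.13 to 6.23 in 30C. All of these levels were low beside the median level of the tested genes, 8.18. Car14, a membrane-bound carbonic anhydrase, was at 8.19, 8.22 and 7.90 against 7.79, 7.62 and 7.82, a difference of -0.36 (SE 0.08). Bche, butyrylcholinesterase, differed by -0.27 (SE 0.07) and Prom1, a membrane protein of cell protrusions, by -0.35 (SE 0.10), the latter lowest on 1C replicate 2 at 7.36.

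Oligodendrocyte markers were mostly lower in 1C. Oligodendrocytes wrap axons in myelin, and the list held its structural proteins, the enzymes of its lipids, the gap junction protein Gjb1, transcription factors and other markers. Of 37 tested, 35 differed downwards and 2 upwards, the median difference was -0.19, and 26 had an unadjusted limma p under 0.05, where the background for lower genes is 2.17%. None passed over all genes, and the limma count at an unadjusted p under 0.05 on the upper side was 0. All 3 arrays of 1C lay below those of 1W in 11 of the 37 (background 4.3%). They lay above in 1, Efnb3 (background 3.57%). By role, all 11 structural proteins differed downwards, with a median of -0.18, as did all 9 enzymes, with a median of -0.20, and 3 of 4 transcription factors, with a median of -0.11.

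Mbp, myelin basic protein, was at 12.44, 12.45 and 12.20 in 1W and 12.23, 12.23 and 12.20 in 1C. Its difference of -0.14 (SE 0.06) came from 1W replicates 1 and 2, since 1W replicate 3 was level with the 1C arrays. Opalin, a membrane protein of myelin, was at 10.03, 10.05 and 9.67 against 9.62, 9.53 and 9.71, the same arrangement, with a difference of -0.30 (SE 0.10). Mog, a protein of the outer myelin surface, was at 11.24, 11.22 and 10.99 against 10.93, 10.96 and 10.97, where the groups were apart by 0.02 only.

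Gjb1, a connexin of gap junctions in myelin, separated the groups more clearly, at 7.62, 7.56 and 7.33 in 1W and 7.25, 7.18 and 7.18 in 1C, by -0.30 (SE 0.07). Tmem88b, a membrane protein marking mature oligodendrocytes, was at 9.67, 9.59 and 9.47 against 9.29, 9.35 and 9.24, by -0.29 (SE 0.06). Fa2h, which hydroxylates the fatty acids of myelin lipids, was at 9.61, 9.62 and 9.48 against 9.42, 9.22 and 9.29, by -0.26 (SE 0.07). Qdpr, which regenerates the cofactor tetrahydrobiopterin, had the widest difference on the list, -0.34 (SE 0.10), at 11.10, 10.77 and 10.75 against 10.64, 10.44 and 10.53. In all 4 genes 1W replicate 3 was the lowest 1W array. That it still lay above each 1C array comes from their choice among genes whose groups did not overlap. Over the list this held in 11 of 37.

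The exceptions on the list were Sox8, a transcription factor, at 0.00 (SE 0.10), and Efnb3, an ephrin ligand, at 0.09 (SE 0.08). Among 13 tested markers of oligodendrocyte precursors, the dividing cells from which oligodendrocytes arise, 7 differed downwards, with a median of -0.01, and 3 had an unadjusted limma p under 0.05, all lower (background 2.17%). These were C1ql1 at -0.26 (SE 0.10), the growth factor Bmp4 at -0.20 (SE 0.09) and the receptor Gpr17 at -0.19 (SE 0.09), of which Gpr17 marks cells already committed to differentiate. The precursor count was 0 without 1C replicate 2, and it was 1 when replicate 1 or 2 of 1W, replicate 3 of 1C, or replicate 2 of Sal or 30C was dropped.

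The scores locate the oligodendrocyte difference. On 1W they were 0.22, 0.18 and -0.02, on 1C -0.03, -0.08 and -0.07, and on Sal 0.15, -0.02 and -0.09, so the 1C arrays lay with 2 of the 3 saline arrays and 1W replicates 1 and 2 lay above. The count of 26 became 8 without 1W replicate 2, 9 without 1W replicate 1, 14 without 1C replicate 2 and 15 without 1C replicate 3. Among the 6 arrays of 1W and 1C, 1W replicate 1 also had the highest striatal interneuron score, 0.42, and the lowest medium spiny neuron score, -0.23, and the part of these in the oligodendrocyte values was not tested. At 30 days the list had a median difference of -0.09.

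**Figure D4:**
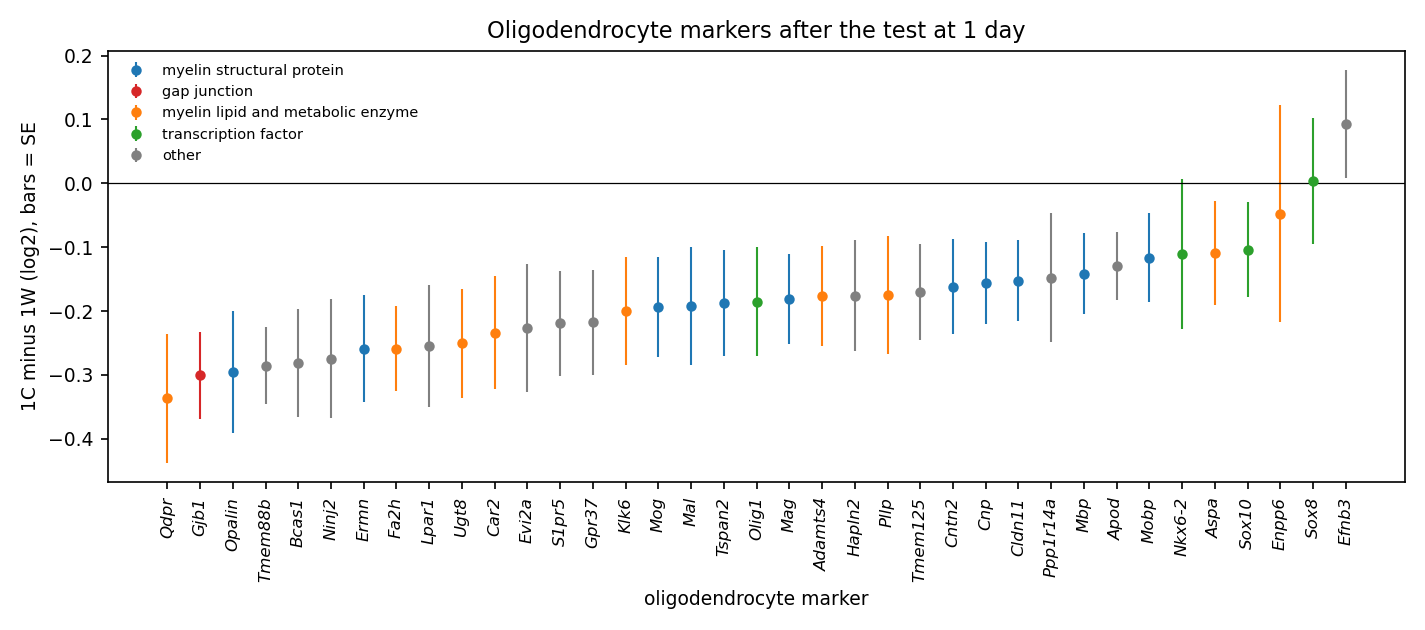
Difference between 1C and 1W (log2, bars are the SE of the limma fit) for 37 oligodendrocyte markers, ordered by value and coloured by role. Of the 37, 35 lie below 0, from -0.34 for Qdpr upwards, and Sox8 and Efnb3 lie at 0.00 and 0.09.

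Immediate early genes are transcribed by neurons after recent activity, and the delay between the test and tissue collection is not stated in the labels. Of 49 tested, 38 differed upwards and 11 downwards, with a median difference of 0.09. Fos, Egr2, Fosl2, Sik1 and Nr4a3 had an unadjusted limma p under 0.05, 5 higher and 0 lower (background 1.86%). The groups did not overlap in Fos, Egr2, Nr4a3, the matrix protein gene Ccn1 and the kinase gene Pim1, which is 5 of 49 (background 3.57%). None passed over all genes. The score was -0.18, -0.02 and -0.15 in 1W and -0.13, 0.09 and 0.03 in 1C, with 1C replicate 1 inside the range of 1W. On Sal it was -0.29, -0.02 and 0.11, a wider range than in either group. Cortical projection neuron scores were -1.28, 0.42 and 0.72 on Sal. They were 0.21, 0.09 and -0.49 on 1W and -0.38, 0.38 and -0.07 on 1C. With the cortical score as a covariate, 6 immediate early genes were higher at an unadjusted limma p under 0.05, against 297 over all genes.

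Fos, a subunit of the AP-1 factor, was at 7.03, 7.26 and 7.28 in 1W and at 7.32, 7.81 and 7.60 in 1C. Its difference was 0.39 (SE 0.15), and the saline arrays, at 7.40 to 7.73, lay within the range of 1C. Nr4a3, an orphan nuclear receptor, was at 7.88, 8.49 and 7.84 against 8.58, 8.75 and 8.50, with 1W replicate 2 within 0.01 of the lowest 1C array, and differed by 0.54 (SE 0.23). Egr2, a zinc finger factor, was at 6.97, 7.36 and 7.26 against 7.53, 7.61 and 7.75, by 0.43 (SE 0.18). In Nr4a3 and Egr2 the highest saline array stood above each 1C array, at 8.96 and 7.89.

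Arc, which acts at synapses, was at 9.07, 9.51 and 9.17 in 1W and 9.17, 9.63 and 9.77 in 1C, and the groups overlapped, with a difference of 0.28 (SE 0.26). Npas4, a factor that responds to calcium entry, was at 8.14, 8.71 and 8.55 against 8.30, 8.87 and 9.63, by 0.47 (SE 0.37), with 1C replicate 3 standing 0.77 above the next array. Nr4a1, the receptor Nur77, was at 8.78, 9.28 and 8.84 against 9.03, 9.36 and 9.63, by 0.37 (SE 0.24). The count of 5 became 0 without 1W replicate 1, 1 without 1C replicate 2, 3 without the third replicate of either group, and 9 without 1C replicate 1.

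The same genes had larger mean differences after the test at 30 days. Over the list the median difference between 30C and 30W was 0.20, against 0.09 at 1 day, and the 2 comparisons share no arrays. At 30 days the score ran from 0.11 to 0.42 in 30C, with replicate 1 at the top, and from -0.19 to 0.03 in 30W. That 30C array also had a cortical projection neuron score of 1.01 and a medium spiny neuron score of -0.40, and the part of these in the values at 30 days was not tested. Nr4a1 differed by 1.00 (SE 0.24) at 30 days, Nr4a3 by 1.01 (SE 0.23), Egr2 by 0.83 (SE 0.18) and Fos by 0.49 (SE 0.15). The test of the difference between withdrawal times, the interaction, passed by limma for 0 of 11778 genes (0.0%), and 357 (3.03%) had an unadjusted p below 0.05. Sik1, a salt-inducible kinase, differed by 0.17 (SE 0.08) at 1 day and 0.44 (SE 0.08) at 30 days, an interaction of 0.27 (SE 0.11), and for Nr4a1 the interaction was 0.63 (SE 0.34), both with a limma adjusted p of 0.999.

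**Figure D5:**
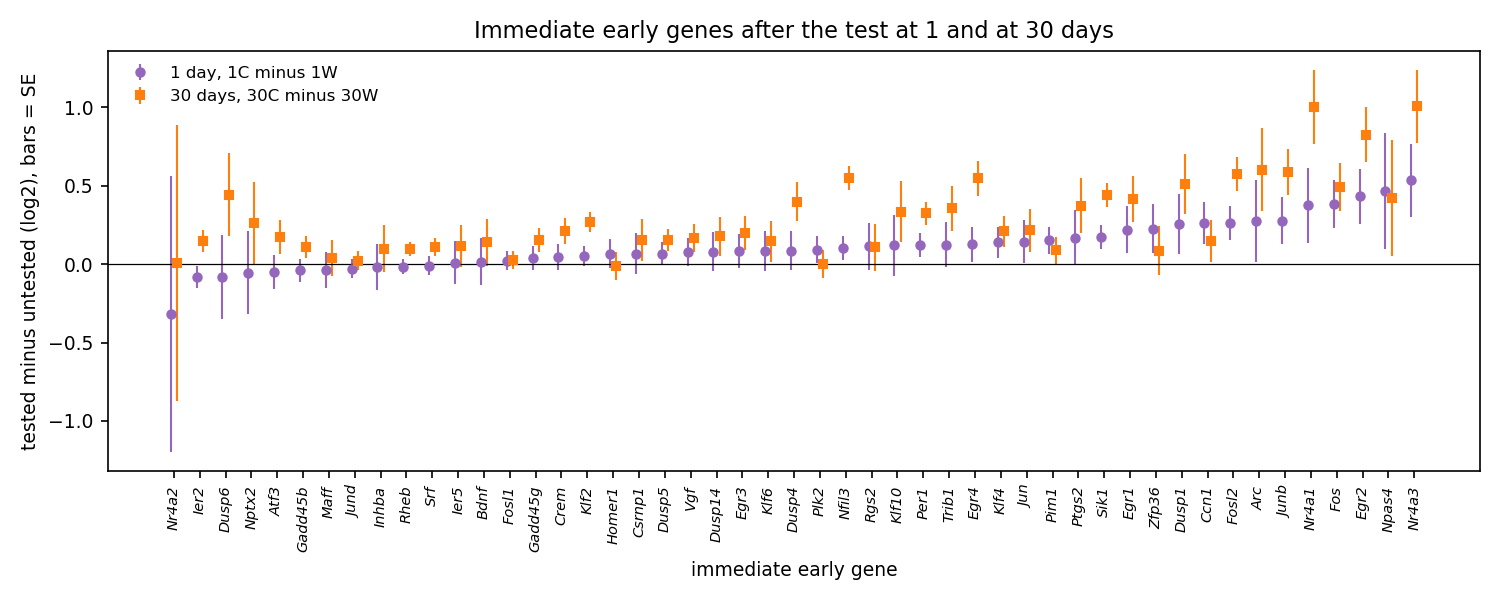
Difference between tested and untested rats (log2, bars are the SE of the limma fit) for 49 immediate early genes at 1 day (circles) and at 30 days (squares), ordered by the value at 1 day. The median is 0.09 at 1 day and 0.20 at 30 days, and Nr4a1 lies at 0.37 and 1.00.

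Microglial genes went both ways. Of 24 tested markers of the resting state, 4 had an unadjusted limma p under 0.05 on the lower side (background 2.17%), namely Cx3cr1, Gpr34, Cd180 and the purinergic receptor P2ry13, and 1 on the upper side, the Fc receptor Fcgr2b, at 7.67 on 1C replicate 2 and 6.72 to 7.12 on the other 5 arrays. Cx3cr1, the fractalkine receptor, was at 10.56, 10.48 and 10.46 in 1W and 10.41, 10.24 and 10.31 in 1C, by -0.18 (SE 0.05). Gpr34, a receptor for lysophosphatidylserine, was at 8.16, 8.05 and 8.04 against 7.76, 7.66 and 7.97, by -0.29 (SE 0.08), and Cd180, a relative of toll-like receptors, differed by -0.25 (SE 0.08). The groups did not overlap in any of these 3, and the saline arrays again lay beside 1C, at 10.30 to 10.39 for Cx3cr1 and 7.76 to 7.93 for Gpr34. The whole list of 35 had a median difference of 0.01 and its score was highest on 1C replicate 2, at 0.18.

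Markers of medium spiny neurons, the main cell type of the tissue, had a median difference near 0. Of 29 medium spiny neuron markers, 18 differed upwards and 11 downwards with a median of 0.01, and 0 had an unadjusted limma p under 0.05. Drd1 differed by 0.06 (SE 0.17) and Drd2 by 0.04 (SE 0.15). The spread between arrays was wider than these means, since the score was -0.23, 0.08 and 0.26 in 1W and -0.01, -0.01 and 0.16 in 1C. Of 33 glutamate receptor and postsynaptic genes, 15 differed upwards and 18 downwards, from -0.18 to 0.10, with 0 at an unadjusted limma p under 0.05. Cortical projection neuron markers also had 0 of 11 there, and their score ran from -0.49 on 1W replicate 3 to 0.38 on 1C replicate 2.

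Striatal interneuron markers leaned downwards, with 7 of 9 lower, a median of -0.19, 2 of 9 whose groups did not overlap, both lower (background 4.3%), and 0 at an unadjusted limma p under 0.05. Pvalb, the calcium buffer of fast-spiking interneurons, was at 8.66, 7.97 and 8.09 in 1W and 8.04, 7.68 and 7.63 in 1C, so that 1W replicate 1 stood above and the groups overlapped, with a difference of -0.46 (SE 0.24). Npy, a neuropeptide of another interneuron class, was at 11.57, 11.69 and 11.75 against 11.47, 11.54 and 11.44, by -0.19 (SE 0.09), without overlap. Slc18a3, the vesicular acetylcholine transporter of cholinergic interneurons, differed by -0.41 (SE 0.23).

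Of 19 mitotic and replication genes tested, 5 had an unadjusted limma p under 0.05, all higher (background 1.86%). Beside Aurkb these were Prc1, which bundles the spindle midzone, at 0.36 (SE 0.13), the factor Foxm1 at 0.17 (SE 0.07), Nusap1 at 0.14 (SE 0.05) and the cyclin Ccnb2 at 0.11 (SE 0.05). Nusap1 and Ccnb2 lay near the low end of the intensity range, between 5.78 and 6.14. The count was 2 without 1W replicate 3 and 3 without 1C replicate 1. Median centring of the arrays, a further quantile normalization, a trended and robust variance or a fit to the 6 arrays alone left 3.

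In the Wnt pathway the antagonist Sfrp1 stood apart from the rest. Of 37 members tested, 21 differed upwards and 16 downwards with a median of 0.01, and the 10 ligands and 12 receptors held 0 with an unadjusted limma p under 0.05 in either direction. On the target side 3 of 7 were there, all lower, namely Rnf43, a ubiquitin ligase that removes Wnt receptors, at -0.21 (SE 0.08), the feedback inhibitor Nkd1 at -0.17 (SE 0.08) and the transcription factor Lef1 at -0.15 (SE 0.07), against a background of 2.17%. The count was 0 without 1W replicate 2, and it was 1 when replicate 1 of 1W, replicate 1 or 2 of 1C, or replicate 2 of Sal, 30W or 30C was dropped.

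Heat shock proteins and chaperones were higher on average in 26 of 27, with a median of 0.06. Their score was 0.09 and 0.08 on 1C replicates 1 and 2 but -0.09 on 1C replicate 3, within the -0.09 to -0.03 of the 1W arrays. Pdia4, a chaperone of the endoplasmic reticulum, had the smallest p, at 0.21 (SE 0.08), 1 of 27 at an unadjusted limma p under 0.05 (background 1.86%). Cholesterol synthesis genes were lower in 17 of 19 with a median of -0.05, and 0 had an unadjusted limma p under 0.05. The 28 endothelial and mural markers were lower in 20, with a median of -0.06, and the pericyte gene Rgs5 at -0.13 (SE 0.05) had the only unadjusted limma p under 0.05, 1 of 28 against a background of 2.17%. In the 17 meningeal and fibroblast markers, 13 were higher, among them Serping1, the complement C1 inhibitor, at 0.50 (SE 0.16), and the matrix protein Fbln1 at 0.32 (SE 0.11), and the score was highest on 1C replicate 1, at 0.26. Astrocyte (21), circadian clock (15), interferon and antigen presentation (25) and blood cell (5) genes had 0 at an unadjusted limma p under 0.05 in either direction, with medians of 0.01, -0.02, 0.09 and 0.04.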

How the data were processed

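RNA of 15 nucleus accumbens samples had been hybridised to Affymetrix rat arrays. The values the authors deposited are log2 intensities from RMA (version not stated), per the submitters' processing notes. RMA corrects background, quantile-normalizes arrays and summarises probes, so arrays were on 1 scale before deposit. Filters before deposit are not stated. The deposited table had 28826 probe sets. The platform annotation gave 1 symbol to 15209, several to 306 and none to 13311, and 15178 were matched by Entrez ID to RefSeq GRCr8, used for names. Each of 14497 genes took its probe set of highest mean, and 11778 genes that exceeded an array's 30th percentile on 3 or more arrays were tested.

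One limma model (limma 3.58.1, R 4.3.3, lmFit and eBayes) was fitted to all 15 arrays with the 5 groups as its term, 10 residual and 3.44 prior degrees of freedom, two-sided, with Benjamini-Hochberg adjustment at 0.05. Unadjusted p-values are descriptive. The fit was tested on simulated data. Gene lists (22, 610 entries) had 507 entries tested, 37 below the filter and 66 not matched to a symbol. The genes, lists and tests were chosen with earlier results of these data known. Named genes were, per direction, the 12 smallest p-values and 6 largest differences among genes whose groups did not overlap, the genes set furthest apart on each array, 4 members per list by p, all chemokines and a fixed set. Dnah12, Cfap141, Capsl, Mog, Opalin, Efnb3, Sox8, Ccnb2, Penk, Ppp1r1b, P2ry13, Fcgr2b, Pim1, Ccn1, Cp, Vom1r34 and Nr4a3 fall outside it and were named after their values were seen. Alternatives covered array weights, the variance model, normalization, filter, probe set choice, a replicate block, which arrays were fitted, the threshold, score and gap, and each array left out in turn. A cortical score covariate was also run.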

Additional observations from a re-analysis of the deposited data

How the results depend on the processing

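In limma the count of genes past an adjusted p of 0.05 was 0 throughout, and also at an adjusted p of 0.10, except without 30C replicate 3 (range 0 to 1). The interaction count was 0 in each fit and could not be fitted with the 6 arrays alone. Genes higher at an unadjusted p under 0.05 numbered 126 with the 50th-percentile filter and 415 over all probe sets against 219 (189 to 250 with 1 array left out). Genes lower numbered 400 over all probe sets and 389 with array weights against 255 (196 to 356). List counts at that p ranged, with 1 array left out, from 8 to 29 for oligodendrocyte markers, 0 to 3 for precursors, 0 to 7 for ependymal, 3 to 6 for microglial, 0 to 9 for immediate early, 2 to 5 for mitotic, 0 to 3 for Wnt and 6 to 21 for axonemal genes. With the 6 arrays alone they were 16 for oligodendrocyte, 0 for precursor and 3 for mitotic genes. The 50th-percentile filter, which tests fewer genes, gave 3 ependymal, 1 mitotic and 6 axonemal genes, and array weights gave 3 ependymal. Quantile normalization, median centring and trended variance each gave 3 mitotic genes. Without 1C replicates 1 and 2 the counts were 8 oligodendrocyte, 1 precursor, 1 ependymal, 2 microglial, 2 immediate early, 2 mitotic, 0 Wnt and 11 axonemal. That fit turned Timp1 to -0.20, Lcn2 to -0.30 and Cxcl1 to -0.11, and leaving out 1C replicate 2 alone turned Lcn2 to -0.48 (up to 0.66 with another array left out) and Cxcl1 to -0.13 (up to 0.61). With the median over members, the mitotic score difference was 0.0471 and the glutamate one 0.00293, against 0.103 and -0.0147. Genes set apart above the other arrays at a gap of 0.3 numbered 20, 100 and 15 on 1C replicates 1 to 3 and 102, 5 and 9 on 1W, and at a gap of 1 they numbered 1, 9 and 0 on 1C and 0 on 1W replicate 1. Apart from the gap and score settings, the cause of these shifts was not tested.

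Replicate numbers of 1C and 1W were not taken to pair the samples, because deviations of same-numbered arrays correlated at 0.12, 0.04 and 0.23, not all above 0.1. 1C replicates 1 and 3 correlated best with the 1W array of their own number, and 1C replicate 2 best with 1W replicate 1 (0.17). The fit with replicate number as a block gave 0 genes past the adjusted threshold, 218 higher and 274 lower at the unadjusted level, and 27 oligodendrocyte and 17 axonemal genes.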

Other observations

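Among the 1W arrays, replicate 1 held 24 genes at 0.5 or more above the other 5 arrays. They included neuropeptide and subcortical genes not described above. Gal, the precursor of galanin, was at 8.34 on 1W replicate 1 and between 6.82 and 7.52 on the other 5 arrays. Slc17a6, the vesicular glutamate transporter of thalamic and hypothalamic neurons, was at 7.47 there and at 5.59 on 1W replicate 3, with the 1C arrays between 6.28 and 6.65. Agt, angiotensinogen, which astrocytes make, was at 10.05 against 8.50 to 9.28, and the glycine receptor subunit Glra1 at 6.79 against 5.38 to 6.03. Ngfr, the neurotrophin receptor of basal forebrain cholinergic neurons, was at 7.64 against 6.57 to 6.92.

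Among the 6 arrays of 1C and 1W, the lowest for striatal markers was again 1W replicate 1, with the neuropeptide receptor Mchr1 at 9.55 against 10.08 to 10.16 on the other 5 arrays. On 1W replicate 3 the opposite held, with Pdyn, the dynorphin precursor, at 11.11 against 10.28 to 10.77 and Neurod6, a factor of cortical neurons, at 7.24 against 8.07 to 9.43. None of these genes had an unadjusted limma p under 0.05 between 1C and 1W. On 1C replicate 2 the vessel genes Itm2a and Slco1c1 stood lowest, at 9.45 against 9.91 to 9.99 and 9.31 against 9.72 to 9.83.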
